A study of Mus musculus with 4 samples.

Results

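Glucocorticoid-responsive genes and metallothioneins were followed in MC38 tumours of mice given vanoxerine or saline. The set held 10 genes of the 54115 with a transcript in the data, listed by name with earlier results of these data known. Of the 10, 10 passed the filter on low counts, which left 18758 genes tested. The members were the receptor gene Nr3c1, the steroid-activating enzyme gene Hsd11b1, the receptor targets Fkbp5, Tsc22d3, Sgk1, Dusp1, Klf9 and Zbtb16, and the metallothionein genes Mt1 and Mt2. MC38 is a mouse colon adenocarcinoma cell line that was injected into mice to form tumours. One group (2 libraries) had received saline intraperitoneally on 10 consecutive days, and the other (2 libraries) vanoxerine, a dopamine transporter inhibitor, at 25 mg/kg on the same schedule. The labels give no strain, age, sex or injection site of the mice, no genetic change in either group, and do not state whether each library is a different mouse. For that reason a p-value here speaks only of the variation among these 4 libraries, part of which may be technical. Per the series title, the comparison asks how the tumour transcriptome responds to vanoxerine in the living animal.

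Glucocorticoids are adrenal steroids that bind the glucocorticoid receptor, held in the cytoplasm by heat shock chaperones. The bound receptor enters the nucleus, attaches to glucocorticoid response elements in DNA and raises feedback and anti-inflammatory genes, while it lowers many cytokine and chemokine genes. Metallothioneins are small cysteine-rich proteins that bind zinc and copper, and their genes respond both to metals, through the factor MTF1 at metal response elements, and to glucocorticoids.

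The libraries held between 67289273 and 75748162 estimated reads, so that counting error was small for members other than Zbtb16 and the spread between libraries set the precision. Mitochondrial genes took 2.58% to 3.48% of reads. The tissue label is colon adenocarcinoma, but the defining genes of colon epithelium were low: Cdx2 had no reads, Krt8, Krt18 and Krt19 lay between 0.468 and 2.02 CPM in the group means, and Cdh1, the most abundant, had 12.4 CPM with saline and 26.5 CPM with vanoxerine. CPM are read counts scaled to library size with TMM factors. The 9 colon epithelium markers summed to 20.1 and 23.4 CPM in saline and to 40.2 and 41.5 CPM in vanoxerine. Of 7 tested, 3 were called higher and 0 lower, and more genes of this list are named than for other cell types. Macrophage markers stood higher in vanoxerine for 10 of 10 genes, with a summed level of 1021 and 1058 CPM in saline and 4334 and 4357 CPM in vanoxerine, and C1qc and C1qa had the smallest p. Fibroblast markers were lower for 8 of 8 genes, at 520 and 515 CPM in saline and 264 and 262 CPM in vanoxerine, led by Col3a1 and Dcn. Neutrophil markers were lower for 4 of 7 genes (summed, 1010 and 1060 against 582 and 575 CPM) and erythroid markers for 5 of 5 (13965 and 15077 against 6246 and 5901 CPM). Mast cell markers were higher for 5 of 5, at 23.0 and 23.7 against 92.5 and 91.1 CPM. In bulk tumour RNA a lower level cannot be told apart as fewer cells of a type or as less RNA per cell, and the part of these marker shifts in the members' changes was not tested.

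Of the 10 genes, Nr3c1, Fkbp5 and Sgk1 rose, Dusp1, Mt1 and Mt2 fell, and Tsc22d3, Hsd11b1, Klf9 and Zbtb16 did not pass the test (edgeR, adjusted p under 0.05 over all genes). Over all genes tested, 36.9% were called, 21.0% higher and 15.9% lower, and among the 9871 genes averaging 10 CPM or more 54.9% were called, 33.0% higher and 22.0% lower. The count of 6 members of 10 lay near the share for genes of that level. The median log2 fold change was -0.04 over the members and -0.00965 over all genes tested. The split of all calls depended on the scaling: 56.9% of calls were higher with TMM factors, 39.0% with upper-quartile factors and 84.2% with log2(TPM + 1). The groups did not overlap in CPM for 10 of 10 members, against 70.7% of all genes tested. With 2 libraries against 2, an exact two-sided permutation test cannot go below p = 0.333, so single genes were tested only in the fit across all genes.

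**Figure D1:**
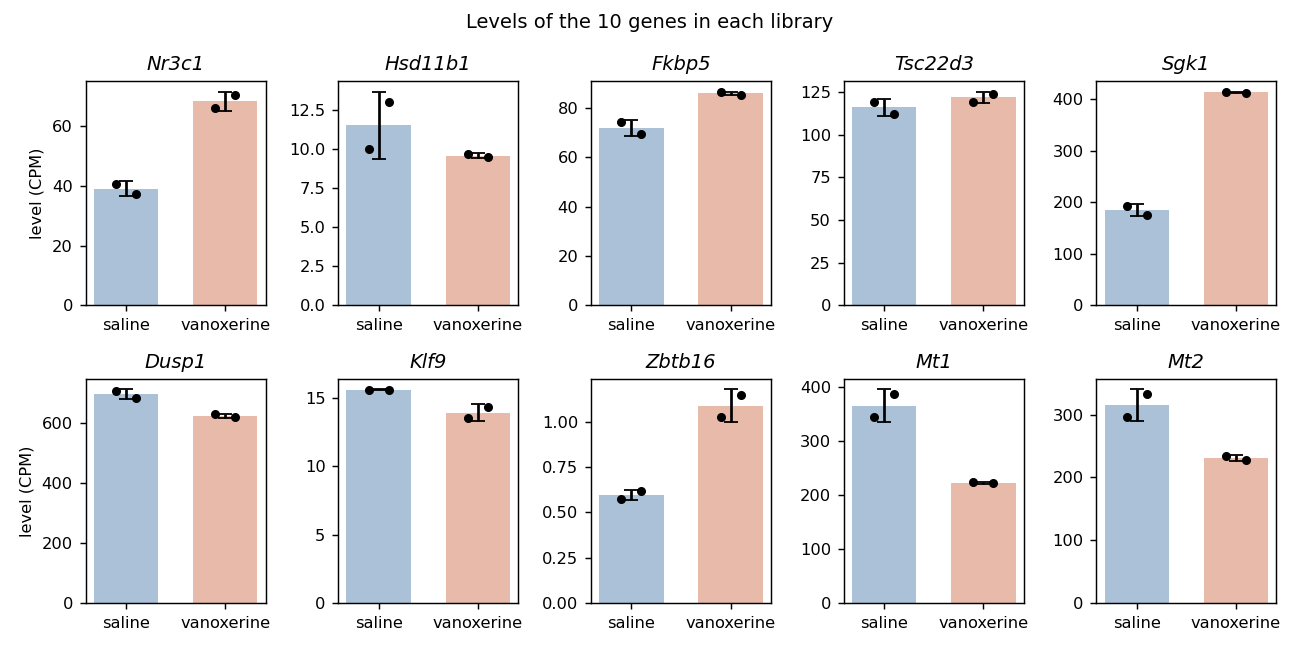
Level in CPM (vertical axes, starting at 0) of each member in the 2 saline and 2 vanoxerine libraries. Points are libraries, bars the mean and error bars the SD (n = 2). Sgk1 lies at 193 and 176 CPM in saline and at 414 and 412 CPM in vanoxerine, whereas both metallothionein genes are lower in vanoxerine.

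Per length, in TPM (transcript abundance scaled by length and library), the members stood in the same order in all 4 libraries except that Nr3c1 and Hsd11b1 changed places. Mt2 stood highest, at 930 ± 25.1 TPM in saline and 795 ± 15.9 TPM in vanoxerine, followed by Mt1, Dusp1, Sgk1, Tsc22d3 and Fkbp5. Levels in TPM or CPM are mean ± SD (n = 2) here and below, and ± after a log2 fold change is the SE. Hsd11b1 was above Nr3c1 in saline (8.38 ± 1.7 and 6.09 ± 0.0764 TPM) and below it in vanoxerine (8.71 ± 0.292 and 13.8 ± 1.66 TPM). Klf9 followed, at 3.25 ± 0.203 TPM in saline and 3.28 ± 0.126 TPM in vanoxerine. Zbtb16 was lowest, at 0.0931 ± 0.00238 TPM in saline and 0.202 ± 0.0156 TPM in vanoxerine. No pair of neighbours in this order overlapped between libraries of the same group.

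Nr3c1 encodes the glucocorticoid receptor itself (chromosome 18, 39410545 to 39519421, reverse strand, GRCm38, as for all positions here). It stood at 40.8 and 37.4 CPM in the saline libraries and at 66.1 and 70.7 CPM in the vanoxerine libraries. Both vanoxerine values lay above both saline values, a 1.75-fold rise with a log2 fold change of 0.81 ± 0.0691 (SE; edgeR adjusted p = 4.64e-04). It was called in 15 of 15 alternative analyses, with log2 fold changes from 0.67 to 1.16. A larger absolute log2 fold change was found for 24.0% of all genes tested.

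Hsd11b1 encodes the enzyme that turns inactive 11-keto steroids into active glucocorticoid inside cells (chromosome 1, 193221634 to 193264075, reverse strand). Its level was 10.0 and 13.0 CPM in saline and 9.65 and 9.44 CPM in vanoxerine. The saline libraries differed from each other more than saline replicate 1 differed from either vanoxerine library, and the log2 fold change was -0.27 (95% interval -0.64 to 0.10; adjusted p = 0.22). Without saline replicate 1 it was called lower, at -0.45 (adjusted p = 0.00623), and without saline replicate 2 it stood at -0.06 on the log2 scale in the same fit. The estimated reads went mostly to the transcript with the most upstream start, Hsd11b1-205, which took 83.3% to 85.6% of the gene's TPM in the 4 libraries. The gene overlaps Lamb3 on the other strand, and whether reads were counted by strand is not given in the sources used here, so reads of both genes may mix.

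Fkbp5 encodes a co-chaperone that lowers the receptor's affinity for hormone and is itself induced by the receptor, a short feedback loop (chromosome 17, 28399094 to 28517527, reverse strand). It was at 74.3 and 69.6 CPM in saline and at 86.6 and 85.5 CPM in vanoxerine. The groups did not overlap, and the rise was 1.20-fold (log2 fold change 0.26 ± 0.0536, adjusted p = 0.0131). The call was lost with upper-quartile factors (0.12, adjusted p = 0.112), with the transcript length offset (0.34, adjusted p = 0.0832), and without vanoxerine replicate 1 (0.26, adjusted p = 0.140) or vanoxerine replicate 2 (0.28, adjusted p = 0.134).

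Tsc22d3 encodes GILZ, a leucine zipper protein that mediates part of the anti-inflammatory action of glucocorticoids (chromosome X, 140539528 to 140600659, reverse strand). Its level was 119 and 112 CPM in the saline libraries and 119 and 124 CPM in the vanoxerine libraries. Saline replicate 1 and vanoxerine replicate 1 were almost level, and the log2 fold change was 0.07 (95% interval -0.06 to 0.21; adjusted p = 0.333). It was called higher with log2(TPM + 1), at 0.33 (adjusted p = 0.0458), and without saline replicate 1, at 0.12 (adjusted p = 0.0238), and lay at -0.06 with upper-quartile factors. Most of its TPM belonged to the protein-coding transcript Tsc22d3-201, at 41.4 and 42.0 TPM in saline and 58.9 and 56.6 TPM in vanoxerine. The form with the far upstream start, Tsc22d3-203, had 0.267 and 0.367 TPM in saline and 0.732 and 0.774 TPM in vanoxerine.

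Sgk1 encodes a kinase that regulates ion channels and cell survival and is a classic early target of the receptor (chromosome 10, 21882184 to 21999903, forward strand). It stood at 193 and 176 CPM in saline and at 414 and 412 CPM in vanoxerine. Both vanoxerine libraries lay far above both saline libraries, a 2.23-fold rise (log2 fold change 1.16 ± 0.0561, adjusted p = 6.43e-05), and 13.7% of genes tested had a larger absolute log2 fold change. The call held in 15 of 15 alternatives, between 1.03 and 1.44 on the log2 scale.

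Sgk1 has several annotated starts. The window of 250 bases before the start of Sgk1-202, at chr10:21993640-21993889 on the forward strand, is shown because it alone among the members' windows held the full palindromic glucocorticoid response element, which is in capitals (RefSeq, GRCm38.p6).
Sgk1, before the Sgk1-202 start: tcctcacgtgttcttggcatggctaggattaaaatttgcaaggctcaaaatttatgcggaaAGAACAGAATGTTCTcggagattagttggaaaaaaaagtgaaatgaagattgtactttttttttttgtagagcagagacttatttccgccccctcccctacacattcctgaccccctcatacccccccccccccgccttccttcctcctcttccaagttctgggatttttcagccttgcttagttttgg
The element searched was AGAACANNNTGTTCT, which reads the same on both strands, and 3 of 32851 promoter windows of 300 bases (250 before and 50 after a start) held it, or 0.00913%. The match began 189 bases before the start of Sgk1-202 and 965 bases before that of Sgk1-201. Its half-site TGTTCT, searched on both strands and counted also inside the palindrome, was held by 19.0% of all windows. Among 15 windows of 8 members, half-sites occurred in 1 of the Tsc22d3 windows and in 3 of the Sgk1 windows. The windows of Fkbp5, Dusp1, Hsd11b1, Klf9, Mt1 and Mt2 did not hold these letters. The Hsd11b1 window did not lie at the Hsd11b1-205 start, nor any Tsc22d3 window at the Tsc22d3-201 start. These forms took most of their gene's TPM. Nr3c1 and Zbtb16 had no window in the table used. A match describes letters, not binding, and the lack of one speaks only of the bases searched.

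Most Sgk1 reads were assigned to Sgk1-201, which starts 776 bases downstream of Sgk1-202. Sgk1-201 was at 58.4 and 53.5 TPM in saline and at 162 and 170 TPM in vanoxerine, or 73.1% to 82.1% of the gene's TPM. Sgk1-202, the form next to the element, had 0.835 and 0.611 TPM in saline and 2.89 and 4.05 TPM in vanoxerine. Both forms were higher in both vanoxerine libraries. Sgk1-203 was at 9.49 and 8.16 TPM in saline, at 11 TPM in vanoxerine replicate 1 and listed at 0 in vanoxerine replicate 2. In that library Sgk1-212, a shorter transcript with the same start, took 23.9 TPM, and it was listed at 0 in the other 3 libraries. The forms share most of their exons and Salmon divides the reads between them by estimate, so these values were not tested.

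Dusp1 encodes a phosphatase that switches off MAP kinases, and both glucocorticoids and stress induce it (chromosome 17, 26505590 to 26562128, reverse strand). It was at 709 and 686 CPM in saline and at 630 and 620 CPM in vanoxerine. The groups did not overlap, and it fell by 0.16 ± 0.0390 on the log2 scale (1.12-fold lower, adjusted p = 0.0237), but with log2(TPM + 1) the value was 0.08 (adjusted p = 0.276), opposite in sign. Without vanoxerine replicate 1 or 2 the call was lost as well (adjusted p = 0.247 and 0.310). The reads of Dusp1 could include some from Ergic1, which overlaps it on the other strand.

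Klf9 encodes a zinc finger transcription factor induced by glucocorticoids and thyroid hormone (chromosome 19, 23141226 to 23168134, forward strand). Its level was 15.6 CPM in both saline libraries and 13.5 and 14.3 CPM in vanoxerine. Both vanoxerine values were lower, yet the log2 fold change of -0.17 was not called (95% interval -0.39 to 0.05; adjusted p = 0.205), and in TPM the groups overlapped. With upper-quartile factors it was called lower, at -0.30 (adjusted p = 0.0434).

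Zbtb16 encodes PLZF, a transcription factor of innate-like lymphocytes and a strong glucocorticoid target in several tissues (chromosome 9, 48654297 to 48836222, reverse strand). It had 44 estimated reads in each saline library and 71 and 76 in the vanoxerine libraries, or 0.576 and 0.618 against 1.03 and 1.15 CPM. Both vanoxerine libraries were higher, but the log2 fold change of 0.87 had a 95% interval from -0.08 to 1.81 (adjusted p = 0.136). It was not called in any of 13 alternatives, where the log2 fold change ran from 0.73 to 0.96.

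Mt1 and Mt2 encode the widely expressed metallothioneins and lie close together on the forward strand of chromosome 8 (Mt2 from 94172664 to 94173568, Mt1 from 94179082 to 94180327). Mt1 stood at 345 and 388 CPM in saline and at 225 and 222 CPM in vanoxerine. Both vanoxerine libraries were lower, a 1.64-fold fall (log2 fold change -0.71 ± 0.0637, adjusted p = 5.44e-04). Mt2 stood at 297 and 333 CPM in saline and at 234 and 228 CPM in vanoxerine, a 1.37-fold fall (-0.45 ± 0.0631, adjusted p = 0.00294). Both calls held in 15 of 15 alternatives, with Mt1 between -0.85 and -0.41 and Mt2 between -0.59 and -0.23. The TPM ratio of Mt1 to Mt2 was 0.884 and 0.916 in the saline libraries against 0.788 and 0.794 in the vanoxerine libraries, so that the groups did not overlap, and the difference in change between these genes was not tested. Salmon may share reads between the 2 related genes.

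The bases before both starts are shown because these neighbours moved together and metal response elements are known to control them. The element searched was TGCACNC or TGCGCNC on both strands, and matches are in capitals (RefSeq, GRCm38.p6, Mt1 at chr8:94178839-94179088 and Mt2 at chr8:94172368-94172617, forward strand).
Mt1: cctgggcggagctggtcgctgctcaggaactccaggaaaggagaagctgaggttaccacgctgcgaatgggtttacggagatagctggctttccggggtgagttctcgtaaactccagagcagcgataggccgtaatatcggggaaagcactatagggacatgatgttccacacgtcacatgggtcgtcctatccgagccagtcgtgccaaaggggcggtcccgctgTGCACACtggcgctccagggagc
Mt2: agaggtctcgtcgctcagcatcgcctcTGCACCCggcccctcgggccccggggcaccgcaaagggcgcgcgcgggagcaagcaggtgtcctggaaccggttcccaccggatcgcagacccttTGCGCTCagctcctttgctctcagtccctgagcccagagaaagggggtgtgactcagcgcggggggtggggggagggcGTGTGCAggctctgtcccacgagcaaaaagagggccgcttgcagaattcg
The full 300-base windows held 3 matches for Mt1, 1 of them before the start, and 4 for Mt2, 3 of them before the start. At least 1 match was found in 25.7% of the 32851 windows and at least 3 in 1.97%. Among the windows of other members, those of Hsd11b1 and Dusp1 and 1 of the Sgk1 windows held 1 match each. The annotated leaders, partly the same bases, held 4 matches in the 229 bases ahead of the Mt1-201 coding sequence and 3 in the 184 bases ahead of that of Mt2-201.

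The spliced form Mt1-201 went from 772 and 828 TPM in saline to 620 and 606 TPM in vanoxerine. Mt1-202 is annotated as 1 unspliced exon of 1085 bases that starts 159 bases downstream of Mt1-201, and so includes intron sequence. It was at 35.5 and 40.5 TPM in saline and at 15.2 and 14.7 TPM in vanoxerine, and its share of the gene's TPM was 4.40% and 4.67% in the saline libraries against 2.39% and 2.37% in the vanoxerine libraries. Both forms were lower in both vanoxerine libraries, and the share of the unspliced form did not overlap between the groups. These shares are Salmon's estimates and were not tested.

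**Figure D2:**
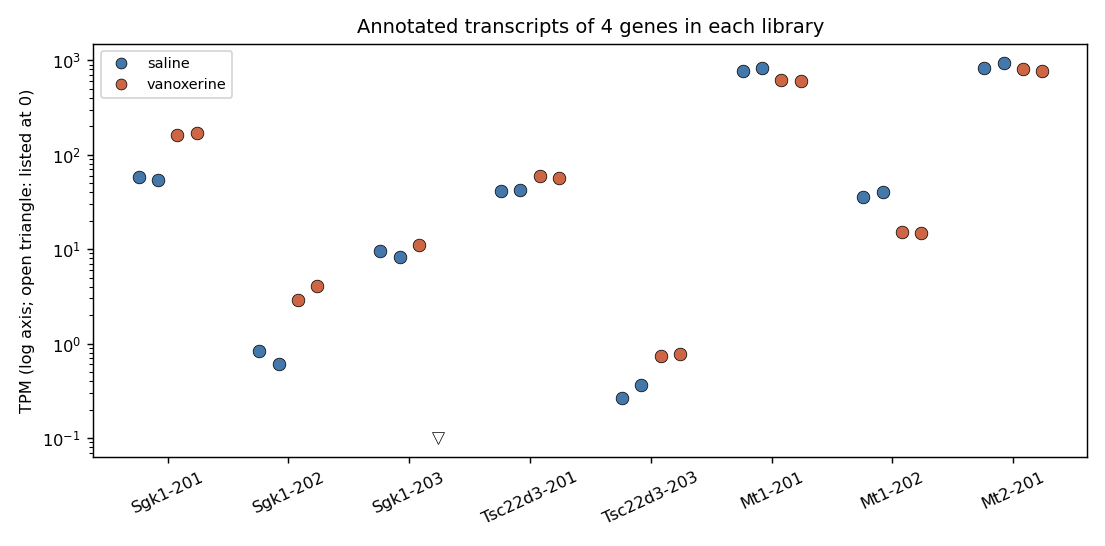
TPM on a log axis of 8 annotated transcripts of Sgk1, Tsc22d3, Mt1 and Mt2, with 1 point per library and an open triangle for a value listed at 0. Sgk1-202 lies at 0.835 and 0.611 TPM in saline and at 2.89 and 4.05 TPM in vanoxerine, and Mt1-202 at 35.5 and 40.5 against 15.2 and 14.7 TPM.

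Nr3c1, Sgk1, Mt1 and Mt2 were called in the same direction in 15 of 15 alternatives, Fkbp5 in 11 and Dusp1 in 10. The scale itself moved: the median of all genes was at 0.21 with log2(TPM + 1) and at -0.14 with upper-quartile factors. Relative to that median, Fkbp5 lay between 0.22 and 0.35, Dusp1 between -0.19 and -0.11, Tsc22d3 between 0.04 and 0.14 and Klf9 between -0.23 and -0.08 over all alternatives. In the authors' deposited table the log2 fold change was 0.91 ± 0.13 for Nr3c1, 1.20 ± 0.0849 for Sgk1, 0.32 ± 0.12 for Fkbp5, -0.64 ± 0.0852 for Mt1 and -0.45 ± 0.0762 for Mt2, each with an adjusted p under the same threshold. In the authors' deposited table Dusp1 was at -0.15 (adjusted p = 0.0596), Tsc22d3 at 0.10 (0.423), Klf9 at -0.19 (0.316), Hsd11b1 at -0.14 (0.621) and Zbtb16 at 0.36 (0.268). Which libraries entered the authors' comparison is not given in the sources used here. Its per-library columns match no sample, so its libraries may differ from those tested here. Whether the deposited log2 fold changes were shrunken, that is, made smaller for imprecise genes, is not given either. Zbtb16 was at 0.36 ± 0.47 there against 0.87 in the main fit here.

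**Figure D3:**
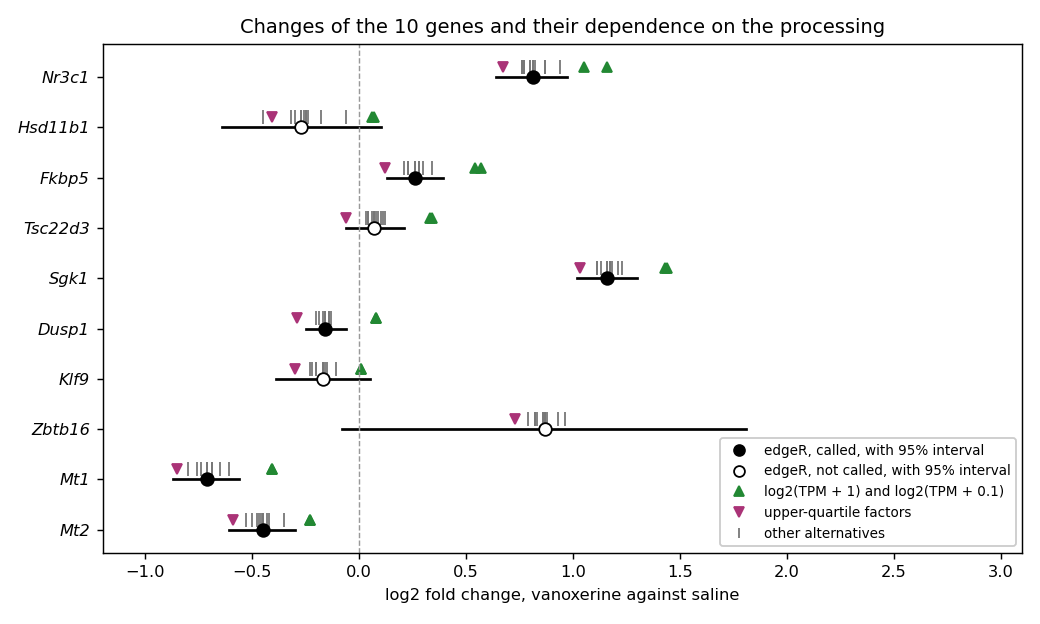
Log2 fold change of vanoxerine against saline for each member. Circles are the edgeR values with their 95% interval (filled where called), and the marks above each line are the alternative analyses. Nr3c1, Fkbp5, Sgk1, Zbtb16, Mt1 and Mt2 keep their side of 0 in all those with a value, while Tsc22d3, Dusp1, Klf9 and Hsd11b1 cross it with upper-quartile factors or with log2(TPM) values.

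Other genes that glucocorticoids induce changed in both directions. Of 25 such genes, 15 rose, 6 fell and 4 did not pass the test, with a median log2 fold change of 0.36. For this list and those below, the shares over all genes tested were 21.0% higher and 15.9% lower. Among genes averaging 10 CPM or more they were 33.0% and 22.0%. Glul, the glutamine synthetase gene, rose from 44.5 ± 1.3 to 154 ± 1.45 CPM. Txnip, which encodes a brake on glucose uptake, rose from 202 ± 1.21 to 419 ± 5.03 CPM. Mertk, a receptor gene for the uptake of dead cells that macrophages also express, rose 4.26-fold, from 10.4 ± 0.924 to 44.2 ± 0.512 CPM. Ddit4, which encodes an inhibitor of mTORC1 that hypoxia induces too, fell 1.99-fold, from 305 ± 6.84 to 153 ± 1.37 CPM. The 4 genes that did not pass were Pdk4, Cebpd, Hif3a and Cdkn1c. Of these, Cebpd stood at 6.07 CPM with saline against 7.15 CPM with vanoxerine. Pdk4 was lower in both vanoxerine libraries, at 1.78 and 0.449 CPM in saline against 0.246 and 0.213 CPM. Its log2 fold change was -2.27 (edgeR adjusted p = 0.0599). Without vanoxerine replicate 1 the falls numbered 2, and without vanoxerine replicate 2 the rises numbered 10. The clock gene Per1, a direct receptor target named after its values were seen, rose from 89.1 ± 1.12 to 106 ± 0.592 CPM (log2 fold change 0.25). The macrophage marker Cd163, a receptor target also named after the values were seen, rose from 0.648 ± 0.176 to 2.41 ± 0.242 CPM, and the macrophage markers as a list were higher in 10 of 10. Lcn2, likewise named after its values were seen, fell 3.14-fold, from 36.5 ± 4.29 to 11.6 ± 0.89 CPM. The other genes that fell beside Ddit4, named in the same way, were Cebpb, Il1r2, Map3k6 and Tgfbr3.

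Inflammatory genes that glucocorticoids repress did not move in 1 direction either. Of 20, 10 rose, 6 fell and 4 did not pass the test, with a median of 0.28, and with log2(TPM + 1) 11 rose and 1 fell, while without vanoxerine replicate 1 the rises numbered 6. The adhesion molecule genes Vcam1, from 85.4 ± 0.534 to 247 ± 6.45 CPM, and Icam1, from 38.8 ± 0.932 to 91.2 ± 0.0740 CPM, and the collagenase gene Mmp13, from 46.1 ± 3.68 to 153 ± 3.34 CPM, rose. Ifng, the interferon gamma gene, fell from 30.1 ± 1.73 to 12.1 ± 0.684 CPM. Il1b (746 ± 24.8 against 789 ± 26.5 CPM), Il6, Sele and Csf2 did not pass the test.

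Among 19 genes of receptor chaperones and coregulators, 9 rose, 8 fell and 2, Ptges3 and the mineralocorticoid receptor gene Nr3c2, did not pass. Divided by role, a division made after the values were seen, 8 of 10 chaperone genes fell and 1, Ppp5c, rose, and 8 of 8 coregulator genes rose. The chaperone genes Hsp90aa1, from 1252 ± 19.7 to 866 ± 1.73 CPM, and Ppid, from 163 ± 6.51 to 112 ± 2.03 CPM, had the smallest p among those that fell. The direction of the others depended on the measure, and they were named after the values were seen. In TPM Hspa8 (1546 ± 0.161 against 2207 ± 59.8), Hsp90ab1, St13 and Fkbp4 were higher in vanoxerine. Hsp90aa1 and Ppid were lower there too, and the groups of Stip1 and Bag1 overlapped. With log2(TPM + 1) 2 chaperone genes were called higher. The acetyltransferase gene Ep300, from 47.4 ± 2.06 to 74.3 ± 1.84 CPM, and the coactivator gene Ncoa3, from 65.5 ± 1.94 to 94.9 ± 0.364 CPM, rose. With log2(TPM + 1) the count of chaperone genes that fell was 1 and of coregulator genes that rose 4 (3 with the transcript length offset), and without vanoxerine replicate 1 or 2 the chaperone count was 4 or 3.

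Genes of steroid synthesis, transport and inactivation were often without reads: 8 of 15 did not pass the filter on low counts, among them Hsd3b1, Cyp21a1 and Cyp11b1 at 0 in every library. H6pd, which supplies the cofactor for the Hsd11b1 enzyme, rose 1.97-fold, from 24.6 ± 0.460 to 48.4 ± 1.19 CPM. The steroid-exporting pump gene Abcb1a rose from 12.4 ± 0.480 to 22.4 ± 2.11 CPM. Cyp11a1, the enzyme of the first step from cholesterol, fell from 3.68 and 6.18 to 1.29 and 1.70 CPM (adjusted p = 0.00914), and was not called with log2(TPM + 1) or without vanoxerine replicate 1. Hsd11b2, the inactivating enzyme gene, was near 0 in the 4 libraries (means 0.0916 and 0.142 CPM) and did not pass, nor did Abcb1b, Srd5a1 and Star.

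Other genes of zinc and copper handling rose in 14 of 26 tested and fell in 3, with a median of 0.23, and the count of rises was 7 with upper-quartile factors, 8 with the transcript length offset, and 5 or 4 without vanoxerine replicate 1 or 2, where no fall was called. Slc30a1, the plasma membrane zinc exporter gene and, like Mt1 and Mt2, a target of MTF1, was at 19.3 and 15.8 CPM in saline and at 72.1 and 73.8 CPM in vanoxerine. The vanoxerine libraries lay far above the saline libraries, a 4.16-fold rise (log2 fold change 2.06 ± 0.10, adjusted p = 6.8e-05), opposite to Mt1 and Mt2. The copper pump gene Atp7a (1.10 ± 0.0860), the copper transporter gene Slc31a2 (0.80 ± 0.0677) and Slc39a9 (0.47 ± 0.0711) rose as well on the log2 scale. The zinc transporter genes Slc39a7 and Slc39a10 and the copper chaperone gene Atox1 fell, by 0.27, 0.20 and 0.23 on the log2 scale. Mtf1 and Mt3 were named after their values were seen. Mtf1 rose from 16.5 ± 2.02 to 22.5 ± 0.277 CPM, but its groups overlapped in TPM (5.70 and 9.04 in saline against 9.13 and 8.18 in vanoxerine). Mt3, a metallothionein best known from brain, rose from 0.0654 and 0.0983 to 0.939 and 0.956 CPM. It had few reads, 5 and 7 in saline and 65 and 63 in vanoxerine.

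**Figure D4:**
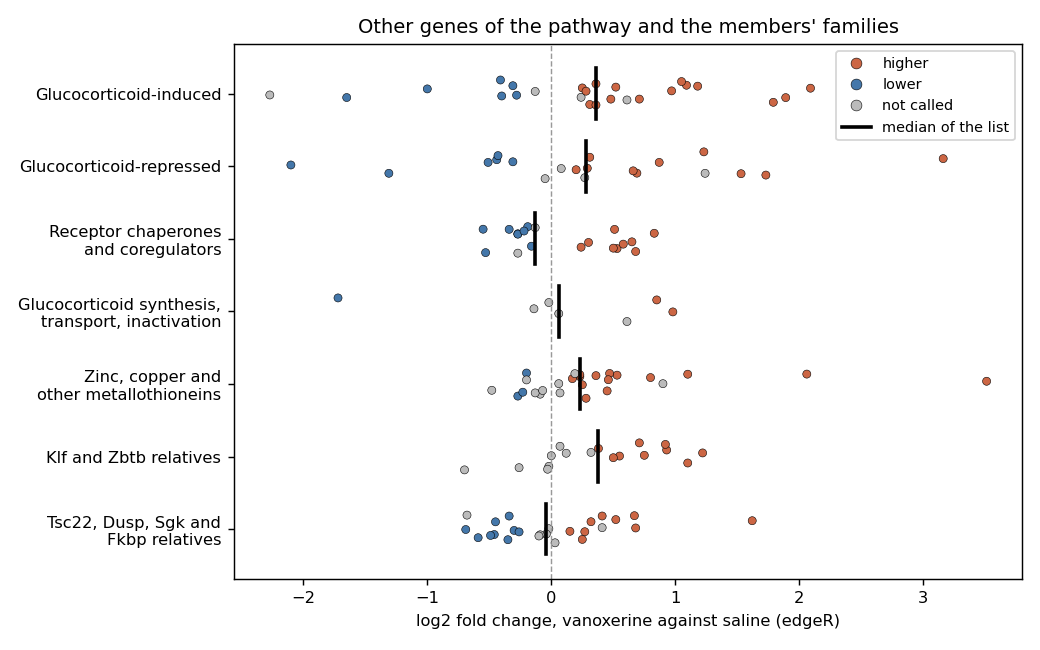
Log2 fold change of vanoxerine against saline (edgeR) for each tested gene of 7 lists, coloured by call, with the list's median as a black bar. The medians run from -0.13 for receptor chaperones and coregulators to 0.38 for Klf and Zbtb relatives, and each list holds genes on both sides of 0.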

How the data were processed

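Total RNA of snap-frozen tumours was made into TruSeq RNA v2 libraries, per the labels' protocols. The build GRCm38 and the programs DESeq2, Salmon 1.3.0 and fastp were used per the submitters' processing notes, with settings not given in the sources here. The authors deposited, per transcript and library, Salmon's estimated counts (not normalized), TPM and effective lengths. The authors' deposited table of the comparison holds a normalized mean signal, log2 fold changes and p-values, and its 4 per-library columns match no sample and were not used.

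Of 140992 transcripts, 139791 had a gene in GENCODE M21 (GRCm38). Estimated counts were summed per gene, rounded, and tested with edgeR 4.0.16 (R 4.3.3): TMM factors, default filter (minimum count 10, minimum total 15), quasi-likelihood test, Benjamini-Hochberg adjustment over 18758 genes, called under 0.05. SE came from the F statistic. The script was tested on simulated data. Alternatives were other factors, no filter, DESeq2 1.42.0, limma-voom (limma 3.58.1), a transcript length offset, log2(TPM + 1) or log2(TPM + 0.1) with limma-trend (mean TPM of at least 0.5), protein-coding genes only, a replicate block, and leaving out each library.

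The members and gene lists were chosen with earlier results of these data known. The text names all members, the 4 genes of a pathway or family list with the smallest p, and the genes behind a count of 5 or fewer calls of such a list in the main fit. It says where others were added. Among cell markers, the 2 with the smallest p are named for macrophages and fibroblasts only. Genes behind counts of the alternative analyses are not named.

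The libraries of a group differed by more than sampling noise: the mean chi-square per gene was 58.3 in saline and 17.3 in vanoxerine.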

Additional observations from a re-analysis of the deposited data

How the results depend on the processing

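The count of genes called moved most with the library left out. It was 6916 with all libraries and 3107 to 9708 without 1 of them (2113 to 5446 higher, 994 to 4262 lower), lowest without a vanoxerine library. In those fits the group with 1 library is assumed to vary like the other, and the common dispersion was 0.0102 in saline and 0.00159 in vanoxerine. The transcript length offset gave 4309 calls (2604 higher, 1705 lower). Lower calls numbered 4525 with upper-quartile factors, 741 with log2(TPM + 1) and 765 with log2(TPM + 0.1). Listed pathway genes called were 101, and 56 to 107 without 1 library. In each of the 15 alternatives 4 to 8 members were called. Signs turned for Tsc22d3 (-0.06 with upper-quartile factors), Dusp1 (0.08 and 0.08), Hsd11b1 (0.06 and 0.07) and Klf9 (0.01 and 0.01), the latter 3 with log2(TPM + 1) and log2(TPM + 0.1), and the cause was not tested. Dusp1 also lost its call without the low-count filter (-0.14, adjusted p = 0.0543). Zbtb16 was under the minimum mean TPM and has no value there. The labels share replicate numbers but do not say that they pair libraries, and the deviations of same-numbered libraries had a correlation of -0.0129. With the replicate block 6391 genes were called, 3757 higher and 2634 lower, and no member's call changed. The block's count for members was 6.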

Other observations

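Of 17 Klf and Zbtb genes tested, 9 rose and 8 did not pass the test, and the count of rises lay between 8 and 10 over the 15 alternatives. Klf4, from 73.4 ± 5.60 to 157 ± 1.81 CPM, Klf10, Klf13 and Klf2, from 95.3 ± 7.35 to 182 ± 1.13 CPM, had the smallest p, next to Klf9 itself, which was lower in both vanoxerine libraries without a call. Among 25 relatives of Tsc22d3, Dusp1, Sgk1 and Fkbp5, 9 rose and 9 fell, but with log2(TPM + 1) 2 fell and without vanoxerine replicate 1 the rises numbered 4. The kinase gene Sgk3 rose 3.07-fold, from 11 ± 1.56 to 33.6 ± 0.428 CPM, beside Sgk1. Dusp16, a phosphatase gene for the kinases JNK and p38, rose from 42.5 ± 1.75 to 68.0 ± 0.190 CPM, opposite to Dusp1. Fkbp10, which encodes a collagen chaperone of the endoplasmic reticulum, fell from 142 ± 0.202 to 101 ± 1.88 CPM, and Fkbp15 rose from 52.7 ± 0.346 to 84.0 ± 0.788 CPM, in libraries where summed fibroblast markers went from 520 and 515 to 264 and 262 CPM.

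The division of reads between transcripts of 1 gene differed between libraries of the same group. Nr3c1-204 took 5.50 TPM in saline replicate 1 and was listed at 0 in saline replicate 2, where Nr3c1-203 took 5.28 TPM against 0.269 TPM in replicate 1, although the whole gene was at 6.15 and 6.04 TPM. Fkbp5-203 was listed at 0 in saline replicate 1 and vanoxerine replicate 1, and had 2.02 TPM in saline replicate 2 and 5.85 TPM in vanoxerine replicate 2. The mean effective length of Fkbp5 was 3292 and 3007 bases in saline and 3331 and 2744 bases in vanoxerine, and its TPM was 24.1 and 28.7 in the vanoxerine libraries, whose CPM were 86.6 and 85.5.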
